A study of Mus musculus with 15 samples.

Results

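The 8 genes described here encode chemokine receptors of skin-homing and inflammatory leukocytes, namely Ccr1, Ccr2, Ccr4, Ccr8, Ccr9, Ccr10, Cxcr6 and Cx3cr1. They were taken by symbol from the 24015 genes of the deposited count table, and all 8 passed the filter on low counts that left 13578 genes to test. The RNA came from regulatory T cells (Tregs), the CD4 T cells that restrain immune responses and depend on the transcription factor Foxp3. Adult C57BL/6 mice carried Foxp3 cre-eyfp in all 5 groups, so Cre and a yellow fluorescent protein (YFP) follow Foxp3 in the controls too, and the sorted fraction was CD45+CD3+CD4+YFP+. Each group has 3 libraries, called biological replicates in their titles without naming animals, so the p-values measure only the spread between these libraries. Wild-type (WT) Tregs were taken from lymph nodes that drain the skin (LN), from skin left untreated and from skin given MC903. Cells of Foxp3 cre-eyfp Rora fl/fl mice, here cKO, came from untreated and from MC903-treated skin, and in them Cre can cut the floxed alleles of Rora, the gene of the nuclear receptor ROR-alpha, in cells that express Foxp3.

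MC903, or calcipotriol, resembles vitamin D and causes a dermatitis when painted on mouse ears, here 4 times in ethanol. Treated samples were ears, whereas untreated ones joined ear and dorsal skin, and the labels give the untreated groups no ethanol. Effects of MC903, of the solvent and of the site therefore cannot be told apart. Skin was digested for 90 minutes, and no digestion is stated for LN, so tissue and digestion cannot be told apart either.

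Chemokine receptors are G protein-coupled receptors that steer leukocytes along gradients of small secreted proteins. Ccr4, Ccr8 and Ccr10 are known from T cells that home to skin, where keratinocytes, dendritic cells and endothelium supply their ligands. Ccr1 and Ccr2 are the classical receptors of inflammatory chemokines, Cxcr6 marks T cells that stay in tissue and binds Cxcl16, Cx3cr1 binds fractalkine, and Ccr9 leads T cells to the small intestine through Ccl25. In RefSeq, 7 of the 8 genes lie on chromosome 9, where Rora lies too, and Ccr10 lies on chromosome 11.

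RefSeq's promoter table (GRCm38.p6, a later build than the mm9 of the deposited counts) has an entry for 7 of the 8 genes. The 250 bases before the start are shown for the 4 genes of these 7 with the highest transcript level per length in untreated WT skin, since they carry most of the results below. Each is written 5′ to 3′ on the strand of its gene, with matches to a motif in capitals.
Ccr8 (chr9:120091883-120092132, + strand): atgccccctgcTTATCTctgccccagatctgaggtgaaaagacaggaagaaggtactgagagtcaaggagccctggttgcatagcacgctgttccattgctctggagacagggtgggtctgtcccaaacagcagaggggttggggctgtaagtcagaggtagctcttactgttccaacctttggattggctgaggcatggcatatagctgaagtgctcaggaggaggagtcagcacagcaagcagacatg
Cxcr6 (chr9:123806227-123806476, + strand): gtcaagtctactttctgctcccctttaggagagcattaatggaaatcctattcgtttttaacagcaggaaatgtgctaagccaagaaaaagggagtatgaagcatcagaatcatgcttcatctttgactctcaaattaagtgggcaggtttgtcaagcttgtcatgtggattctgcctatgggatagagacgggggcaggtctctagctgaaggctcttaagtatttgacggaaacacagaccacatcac
Ccr2 (chr9:124101933-124102182, + strand): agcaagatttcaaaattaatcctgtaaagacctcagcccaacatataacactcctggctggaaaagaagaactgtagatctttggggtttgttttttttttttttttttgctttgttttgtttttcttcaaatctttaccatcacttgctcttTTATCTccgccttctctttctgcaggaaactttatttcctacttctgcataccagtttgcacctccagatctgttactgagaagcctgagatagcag
Ccr4 (chr9:114496545-114496794, - strand): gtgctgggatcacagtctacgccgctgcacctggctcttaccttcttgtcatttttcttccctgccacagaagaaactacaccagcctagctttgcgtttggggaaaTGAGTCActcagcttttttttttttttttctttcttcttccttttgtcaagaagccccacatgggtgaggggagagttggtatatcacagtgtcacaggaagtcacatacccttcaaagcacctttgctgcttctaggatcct
Motifs were searched on both strands, and no match overlapped a match of another motif. AP-1 was searched as TGANTCA, a motif of activation-induced factors. The half-site of ROR factors was searched as AGGTCA and the motif of STAT factors as TTCNNNGAA. For the cAMP response element the letters were TGACGTCA. The motif of GATA factors was AGATAA, and NF-kB was searched by a longer motif. Ccr8 holds 1 GATA match 239 bases before its start, Ccr2 holds 1 GATA match 97 bases before it, and Ccr4 holds 1 AP-1 match 143 bases before it. None of the 6 motifs matched in the windows of Cxcr6, Ccr1, Ccr9 or Cx3cr1. Over all 32851 windows of this length the GATA letters occur in 9.99%, AP-1 in 6.75%, the ROR half-site in 14%, STAT in 7.02%, cAMP response element in 1.55% and NF-kB in 1.41%. A match describes the letters only and marks no bound site.

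Each library held between 19.8 and 27.7 M counts (M, mega). Rora was read at 1390 ± 102 CPM (counts scaled to a library size of 1 M; SD, n = 3) in untreated WT skin and 1030 ± 192 in untreated cKO skin. After MC903 it was read at 788 ± 42.4 CPM in WT and 532 ± 87.3 in cKO, and in LN at 59.3 ± 6.92. The log2 genotype difference of Rora did not pass in either treatment (edgeR adjusted p = 0.25 and 0.191) and passed averaged over both, at -0.50 ± 0.10 (SE, adjusted p = 0.0193). The averaged Rora call was lost when replicate 3 of untreated WT skin (0.0532), replicate 1 of treated WT skin (0.0629), or from treated cKO skin replicate 2 (0.0634) or 3 (0.0671), was dropped, and without the libraries with most myeloid (0.272) or fibroblast and endothelial (0.182) markers. Counts summed over a gene do not tell the floxed exon from the rest. Foxp3 lay between 110 and 202 CPM in the skin libraries and between 16.2 and 41.8 in LN. Transcripts of the T cell marker Cd3e were present in every library at 772 CPM or more. Keratinocyte markers summed to between 163 and 846 CPM in skin and to at most 33.9 in LN. Fewer cells of a type and less RNA per cell cannot be told apart in bulk libraries.

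Per kilobase of exon, Ccr8 was the most abundant of the 8 transcripts in all 5 groups, and the mean of Cxcr6 came second. In untreated WT skin Ccr8 stood at 568 ± 49.3 CPM per kilobase (SD, n = 3) and Cxcr6 at 317 ± 90.4. Ccr2 (41 ± 11.7), Ccr10 (37.7 ± 7.77) and Ccr4 (27.4 ± 7.13) followed, and the libraries of neighbours among these 3 overlapped. Ccr1 stood at 7.53 ± 2.84 and Cx3cr1 at 0.0829 ± 0.0869 CPM per kilobase, and Ccr9 had no count. In WT MC903 skin Ccr2 (53.5 ± 20.1) overlapped both Cxcr6 (68 ± 7.06) and Ccr4 (53.1 ± 5.87). The libraries of Cxcr6 (59.8 to 72.6) and Ccr4 (48.2 to 59.6) were narrowly apart, and Ccr10 had dropped to 4.51 ± 2.4. In cKO MC903 skin Cxcr6 (69.6 ± 16.6) and Ccr2 (69.5 ± 4.22) could not be told apart. In LN Ccr8 stood at 87.2 ± 43.7 and Cxcr6 at 15.3 ± 1.76, and Cxcr6 overlapped Ccr4 at 12.3 ± 3.61. The LN values of Ccr9 (0.986 ± 0.343) lay above those of Ccr1 (0.398 ± 0.155), an order opposite to that in each skin group.

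**Figure D1:**
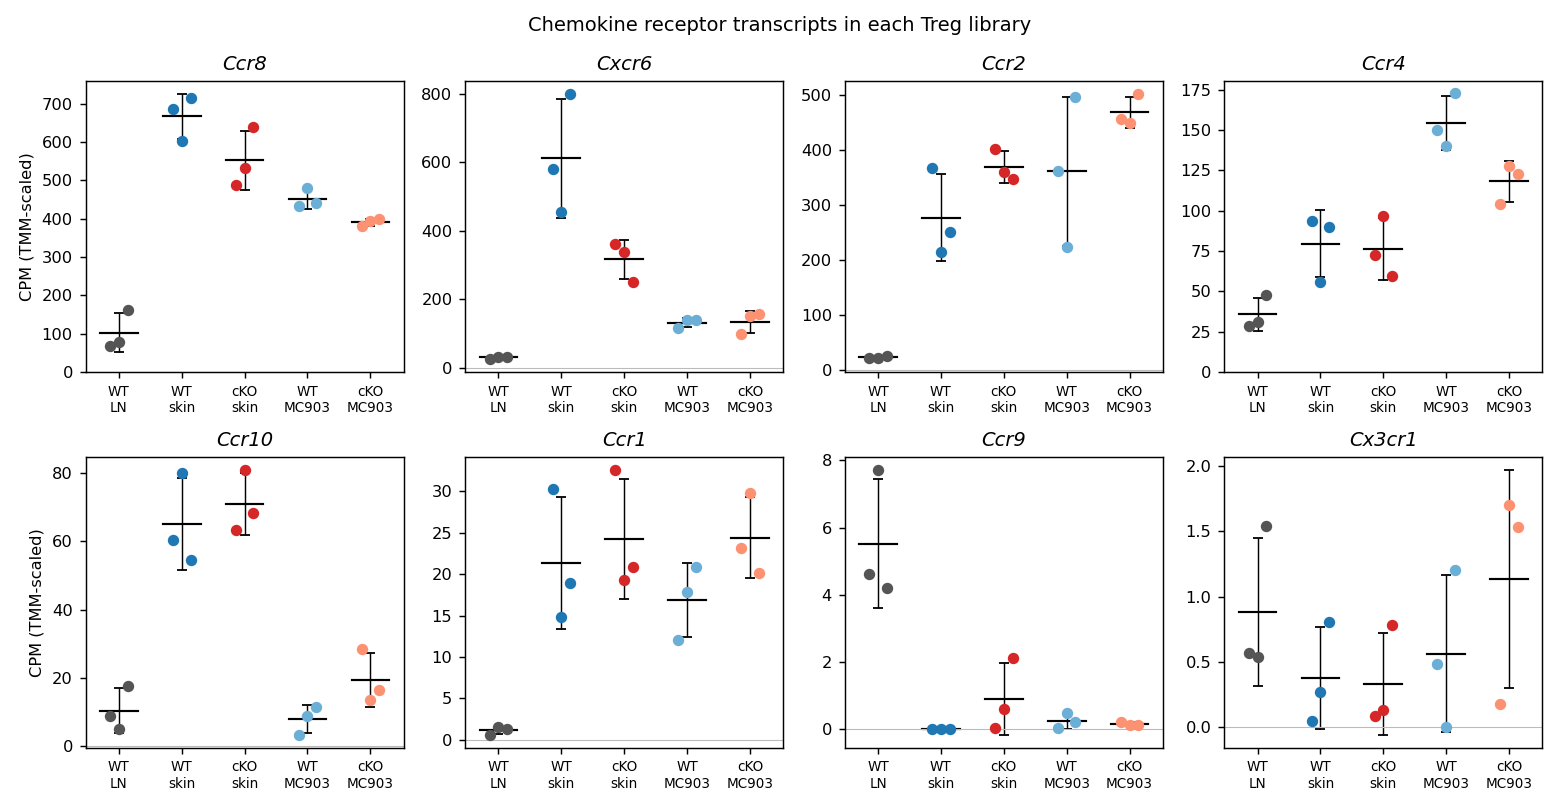
Level of each receptor transcript (CPM, TMM-scaled, linear axis of its own for each gene) in the 15 Treg libraries. Points are libraries, bars are group means and whiskers are SD (n = 3); Ccr9 is highest in LN, Cxcr6 steps down from untreated WT to cKO to MC903-treated skin, and Ccr10 is high in untreated skin of both genotypes.

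The first comparison asks what sets Tregs of untreated WT skin apart from those of LN. Skin Tregs held more transcript of the skin-homing receptors Ccr4, Ccr8 and Ccr10, of the residency-linked receptor Cxcr6 and of the inflammatory receptors Ccr1 and Ccr2. They held less of the gut-homing receptor Ccr9, and Cx3cr1 was near the detection limit in both tissues. By edgeR's quasi-likelihood test at an adjusted p under 0.05, 6 of the 8 rose, 1 fell and 1 did not pass. Of all genes tested 28.8% were higher in skin and 28.8% were lower. The median log2 change of the 8 was 2.68, also with Ccr9 at its bound, against 0.01 over all genes. Foxp3 itself was 5.94-fold higher in skin than in LN (log2 2.57 ± 0.26, SE, edgeR adjusted p = 6.69e-07). Of 10 Treg and T cell markers, Foxp3 among them, 5 rose, 4 fell and 1 did not pass. The part of these 10 markers in the receptor differences was not tested.

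Ccr8, the receptor of Ccl1, was read at 685, 602 and 714 CPM in the untreated WT skin libraries and at 68.2, 77.6 and 161 in LN. The lowest skin library lay far above the highest LN library, and the third LN library stood above the other two. The log2 difference was 2.70 ± 0.24 (SE, edgeR adjusted p = 2.15e-07), a 6.51-fold higher level. Ccr4, the receptor of Ccl17 and Ccl22, was read at 93.5, 55.8 and 89.6 CPM in skin and 28.4, 30.9 and 47.7 in LN. Its groups did not overlap, and its change was the smallest of the 6 (1.16 ± 0.23, edgeR adjusted p = 0.000478, 2.23-fold). For Ccr10, the receptor of the keratinocyte chemokine Ccl27, skin libraries held 60.5, 80.2 and 54.6 CPM and LN libraries 8.63, 4.76 and 17.5. The groups were apart, with a log2 difference of 2.66 ± 0.48 (edgeR adjusted p = 0.000365).

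Cxcr6 had the largest fitted change of the 6 that rose. Its levels were 581, 454 and 799 CPM in skin against 25.7, 32.2 and 30.8 in LN. Every skin library lay above every LN library, and the skin libraries spread more widely. The log2 difference was 4.37 ± 0.24 (edgeR adjusted p = 5.92e-10), or 20.7-fold with a 95% interval of 14.5 to 29.4.

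Among the inflammatory receptors, Ccr2, which binds Ccl2, Ccl7 and Ccl12, was read at 367, 215 and 251 CPM in skin and 21.6, 22.3 and 26.6 in LN. LN libraries were close to each other and all below skin (3.56 ± 0.25, edgeR adjusted p = 1.33e-08, 11.8-fold). Ccr1, which binds Ccl3, Ccl5 and related chemokines, was read at 30.3, 14.8 and 19 CPM in skin and 0.639, 1.49 and 1.26 in LN. Although the skin values differed among themselves by more than the LN values did, the groups were apart (4.23 ± 0.38, edgeR adjusted p = 1.55e-07, 18.7-fold).

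Ccr9 moved the other way. It had 130, 243 and 134 counts in the LN libraries, or 4.62, 7.71 and 4.21 CPM, and 0 counts in all 3 untreated WT skin libraries. Against a floor of 3 counts over the whole skin group (0.0481 CPM) LN was at least 115-fold higher (edgeR adjusted p = 0.00019). Low-level reads of Ccr9 were present in the other skin groups, at 1, 14 and 54 counts in untreated cKO skin, 1, 13 and 6 in WT MC903 skin and 5, 3 and 3 in cKO MC903 skin. Part of an exon of Ccr9 overlaps other annotated transcripts in GENCODE, so at such counts the gene of origin is uncertain. Cx3cr1 had between 0 and 49 counts in every library, with 1, 6 and 15 in untreated WT skin and 16, 17 and 49 in LN. Its groups differed by a log2 value of -1.24 with a 95% interval of -4.17 to 1.69 (edgeR adjusted p = 0.457), which leaves changes of either sign within the error.

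Immediate early and heat shock genes, which respond to handling as well as to activation, moved with these receptors. The 25 listed genes summed to between 24400 and 33900 CPM in untreated WT skin and to between 4490 and 4840 in LN, 23 of 25 rose and 1 fell. The part of these genes in the receptor differences was not tested. Markers of macrophages, monocytes and dendritic cells, which also express Ccr1 and Ccr2, summed to 698 to 1460 CPM in skin and 802 to 2620 in LN. These ranges overlap, and 6 of 19 tested rose and 2 fell. Cd74 alone made up most of the sum in every group, at 613 to 924 CPM in untreated WT skin and 570 to 1730 in LN. Of single markers, chosen after their values were seen, Csf1r was at 0.0473 to 4.63 CPM in skin and 0.746 to 5.93 in LN. Itgax was at 0 in at least 2 libraries of each tissue. Cd14 ran from 1.37 to 27.6 CPM in skin and from 0 to 0.157 in LN, and Mrc1 from 1.23 to 4.74 and from 0.0317 to 0.157. The part of these markers in the receptor differences was not tested. With the library highest in the summed list left out of each group, all 7 calls among the receptors held. In untreated WT skin that was replicate 3, whereas Ccr1 and Ccr2 were highest in replicate 1, which had the lowest sum. So this refit cannot tell myeloid transcripts from those of Tregs. The LN library left out was also the highest in B cell markers.

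**Figure D2:**
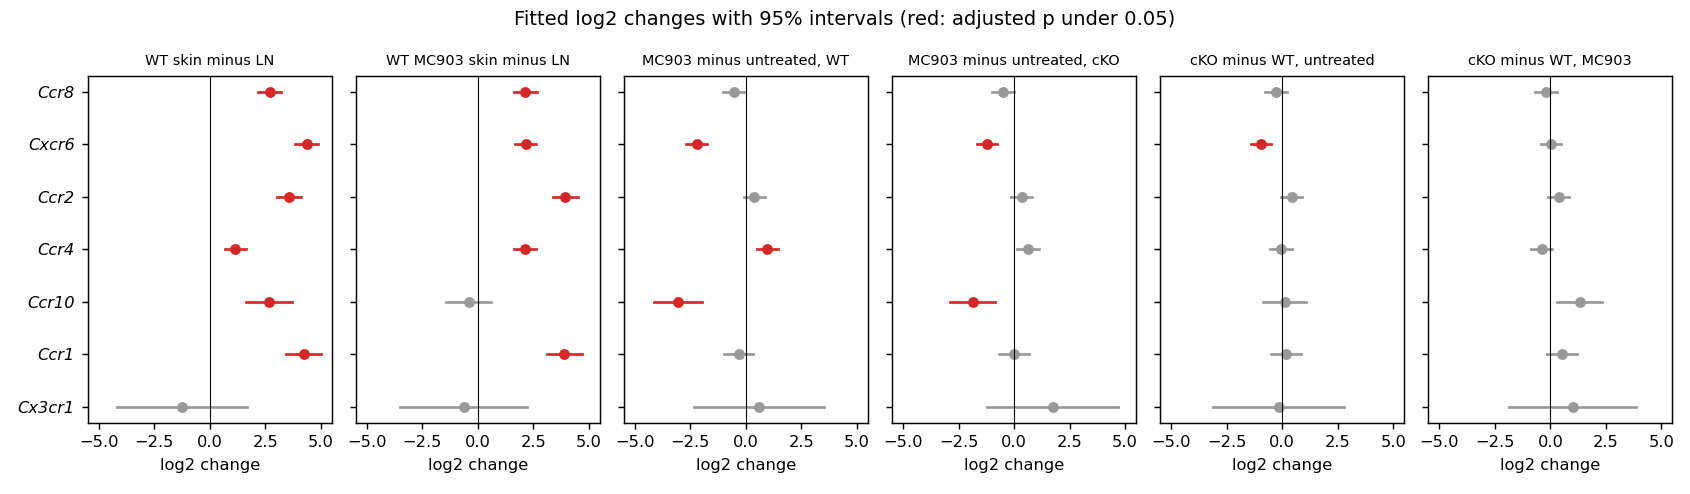
Fitted log2 change (x axis) with its 95% interval for 7 receptors in 6 comparisons, 3 libraries per group, red where the edgeR adjusted p was under 0.05. Ccr9 is not drawn because untreated WT skin had no count; most intervals in the skin-LN panels lie right of 0, and in the MC903 panels those of Cxcr6 and Ccr10 lie left of 0.

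The authors' deposited table holds their own LN against skin comparison. In the authors' deposited table the log2 value (LN over skin) is -4.32 ± 0.22 for Cxcr6, -4.02 ± 0.34 for Ccr1, -3.51 ± 0.23 for Ccr2 and -2.68 ± 0.23 for Ccr8. That table, the authors' deposited table, has -2.51 ± 0.39 for Ccr10, -1.17 ± 0.23 for Ccr4, 4.77 ± 0.71 for Ccr9 and 0.66 ± 0.74 for Cx3cr1 (adjusted p = 0.461 there). The signs are those of the edgeR fit for all 8.

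The chromosome 9 cluster holds Cxcr6, Ccr1 and Ccr2 next to other receptor genes. In RefSeq order it runs Lztfl1, Ccr9, Fyco1, Cxcr6, Xcr1, Ccr1, Ccr1l1, Ccr3, Ccr2. The receptor genes from Cxcr6 to Ccr2 rose in skin against LN, except Ccr1l1, which was read at 0.11 ± 0.191 CPM in skin and 0 in LN (edgeR adjusted p = 0.0997). Ccr3, an eotaxin receptor, rose by 4.02 ± 0.30, and Xcr1, known from dendritic cells, by 2.47 ± 0.36 (SE; edgeR adjusted p = 2.82e-08 and 3.01e-05). At the other end of the cluster Lztfl1, a gene of ciliary transport, fell by 1.01 on the log2 scale (edgeR adjusted p = 0.00167), Ccr9 fell as above, and Fyco1, an adaptor of autophagosome transport, fell by 1.17 (adjusted p = 4.34e-05). Cxcr6 lies inside Fyco1 on the opposite strand with no shared exon base, and Ccr10 lies likewise inside Cntnap1. The level of Fyco1 in skin was 13.9 ± 0.792 CPM beside 611 ± 175 for Cxcr6, and the 2 genes changed in opposite directions.

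**Figure D3:**
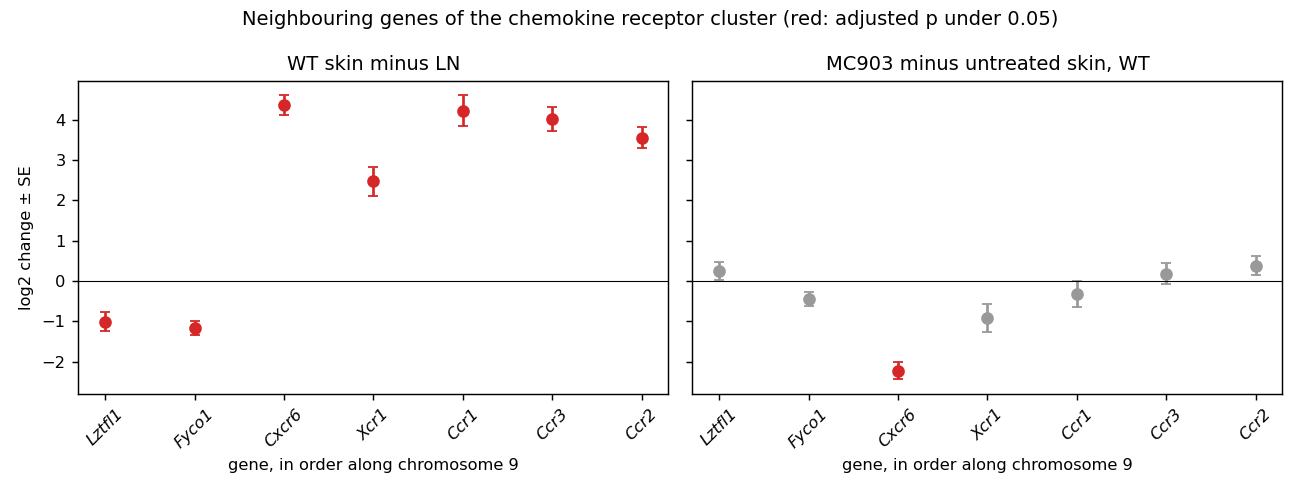
Log2 change ± SE for genes of the chromosome 9 receptor cluster in their order along the chromosome (not to scale), left for untreated WT skin minus LN and right for MC903 minus untreated WT skin, red where the edgeR adjusted p was under 0.05. On the left the receptor genes lie above 0, and Lztfl1 and Fyco1 below; on the right Cxcr6 alone passed. Ccr9 and Ccr1l1 are not drawn, since a group had no count.

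Of 16 other chemokine receptor genes in the table, 13 were tested against LN, and 6 rose, 2 fell and 5 did not pass, with a median log2 change of 2.47. Besides Ccr3 and Xcr1, the rises included Cxcr4, the receptor of Cxcl12 (3.53 ± 0.24, edgeR adjusted p = 6.5e-09), Ccrl2, a receptor that binds chemerin (3.22 ± 0.16, adjusted p = 1.79e-10), and the scavenging receptor Ackr3, which had no count in LN and 0.531 ± 0.528 CPM in skin (adjusted p = 0.0476). The Ackr3 call ended in 13 of 22 alternatives, among them those without any 1 library of either group (edgeR adjusted p = 0.0539 to 0.113), and the rises of Ccr3, Xcr1, Cxcr4 and Ccrl2 held in all 24. The falls were the follicle-homing receptor Cxcr5 (-8.40 ± 0.50, edgeR adjusted p = 1.51e-09) and Cxcr3, a receptor of type 1 inflammation (-0.86 ± 0.19, adjusted p = 0.00133). B cells are known to express Cxcr5, and B cell markers moved with it: all 9 tested fell, and their sum ran from 8.51 to 13.4 CPM in untreated WT skin and from 211 to 789 in LN. Their part in the falls was not tested.

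Ligand transcripts were scarce in the sorted cells. Of 15 tested ligand genes of the 8 receptors, 6 rose against LN, 1 fell and 8 did not pass. Cxcl16, the ligand of Cxcr6, was at 10.1 ± 2.31 CPM in skin and 1.67 ± 2.25 in LN (2.60 ± 0.76, edgeR adjusted p = 0.00924). Cx3cl1, the ligand of Cx3cr1, was at 5.66 ± 1.55 and 0.383 ± 0.26 CPM (3.86 ± 0.69, adjusted p = 0.000201 by edgeR), and Ccl5, a ligand of Ccr1, at 33.4 ± 2.24 and 15.3 ± 8.73 (1.13 ± 0.30, adjusted p = 0.00498). Ccl7, a ligand of Ccr1 and Ccr2, was at 2.84 ± 2.04 and 0.0473 ± 0.082 CPM (edgeR adjusted p = 0.0148). The Ccl7 call ended in 4 of 24 alternatives, among them those without replicate 2 or 3 of LN (edgeR adjusted p = 0.0617 and 0.0567). Ccl1, a ligand of Ccr8, was the 1 that fell, with 0.62 ± 0.387 CPM in skin and 2.79 ± 2.37 in LN (edgeR adjusted p = 0.0307). Its call ended in 5 of 24 alternatives, and it was singled out after its values were seen. Among these were the fits without replicate 2 or 3 of untreated WT skin (edgeR adjusted p = 0.096 and 0.0649) or replicate 3 of LN (0.244). Myeloid and stromal cells are known sources of most of these ligands, and myeloid markers are given with the values above and below. Fibroblast and endothelial markers summed to 99 to 185 CPM in untreated WT skin and 112 to 156 in LN. Of 14 tested, 8 rose and 1 fell, and their part in the ligand differences was not tested.

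Of 22 genes of chemokine receptor signalling, 5 rose in skin against LN, 7 fell and 10 did not pass, with a median of 0.07. The share that fell, like the share that rose, stands beside 28.8% of all genes in each direction. The rises were on G protein subunits, with Gnb1 at 1.83 ± 0.30, Gng2 at 0.80 ± 0.12, Gnb2 at 0.69 ± 0.12 and Gnai3 at 0.44 ± 0.15 (edgeR adjusted p = 0.000119, 3.92e-05, 0.000206 and 0.0225), and on the GTPase Cdc42 (0.30 ± 0.11, adjusted p = 0.0247). Dropping replicate 1 or 3 of untreated WT skin ended the calls on Gnai3 (edgeR adjusted p = 0.143 and 0.0691) and Cdc42 (0.103 and 0.0668), as did dropping LN replicate 1 or 3 for Gnai3 (0.0574 and 0.0512) and 1 or 2 for Cdc42 (0.0694 and 0.0542). The calls on Gnai3 and Cdc42 each ended in 5 of 24 alternatives. All 5 rises were named after their values were seen. The falls with the smallest adjusted p were the GTPase Rac2 (-1.39 ± 0.12, edgeR adjusted p = 1.17e-07), the Rap1 effector Rassf5 (-1.64 ± 0.15, adjusted p = 1.84e-07), the actin regulator Was (-1.27 ± 0.12, adjusted p = 4.31e-07) and the arrestin Arrb2 (-1.06 ± 0.16, adjusted p = 3.41e-05).

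WT MC903 skin was set against the same LN libraries, so this comparison shares its controls with the one above and the values are given side by side. Ccr8, Ccr4, Cxcr6, Ccr2 and Ccr1 rose, Ccr9 fell, and Ccr10 and Cx3cr1 did not pass. That is 5 higher and 1 lower of the 8, where 26.5% of all genes were higher and 24.5% lower. Ccr2 was read at 363, 225 and 497 CPM in the treated ears, all above the LN libraries (3.94 ± 0.26, edgeR adjusted p = 7.09e-09; 3.56 without treatment). The log2 difference from LN was 3.89 ± 0.37 for Ccr1 (edgeR adjusted p = 4.69e-07), beside 4.23 without treatment. For Cxcr6 it was 2.15 ± 0.22 (edgeR adjusted p = 9.25e-07), beside 4.37, and for Ccr8 2.14 ± 0.24 (adjusted p = 2.93e-06), beside 2.70. Ccr4 stood 2.11 ± 0.23 above LN (edgeR adjusted p = 2.4e-06), beside 1.16. Ccr10 in treated skin, at 3.29, 8.62 and 11.5 CPM, overlapped LN, and the difference was -0.40 with an interval of -1.41 to 0.60 (edgeR adjusted p = 0.491). Ccr9 stayed lower than in LN (-4.43 ± 1.13, edgeR adjusted p = 0.00513). The 7 calls against LN in untreated skin and the 6 in MC903 skin held in all alternatives run.

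The next comparison asks how Tregs of MC903-inflamed skin differ from those of untreated skin. In WT, Cxcr6 and Ccr10 fell and Ccr4 rose, while Ccr8, Ccr2, Ccr1, Ccr9 and Cx3cr1 did not pass. That is 1 higher and 2 lower of the 8, where 5.03% of all genes tested were higher and 5.44% lower. The median log2 change of the 8 was 0.02, also with Ccr9 at its bound, beside 0.01 over all genes. Levels of the 3 receptors that moved went in both directions within the skin-homing group, since Ccr4 rose and Ccr10 fell.

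Cxcr6 was read at 116, 140 and 138 CPM in WT MC903 skin, against the 454 to 799 of untreated WT skin given above. The treated libraries lay close together, far below the lowest untreated one. The log2 change was -2.22 ± 0.22 (edgeR adjusted p = 3.39e-05), a 4.66-fold lower level, and its p was number 8 in order among the 13578 genes. Ccr10 had a larger fitted change with a larger error, -3.06 ± 0.49 (edgeR adjusted p = 0.00205), or 8.36-fold lower with all libraries apart. Ccr4 was read at 150, 140 and 173 CPM in treated skin, all above the 55.8 to 93.5 of untreated skin (0.96 ± 0.23, edgeR adjusted p = 0.0144, 1.94-fold). The call on Ccr4 ended without replicate 2 of untreated WT skin (adjusted p = 0.0582), without replicate 3 of WT MC903 skin (0.0559) and without the libraries with most myeloid markers (0.0571) or most fibroblast and endothelial markers (0.0814), by edgeR throughout.

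Ccr8 in WT MC903 skin was read at 432, 480 and 441 CPM, each below every untreated WT library. Its log2 difference of -0.56 ± 0.23 did not pass (edgeR adjusted p = 0.135, interval -1.05 to -0.07). It passed with only these 2 groups in the fit (edgeR adjusted p = 0.0417), by limma-voom (0.0375), and without replicate 3 of LN (0.00798), the library highest in B cell markers and in Ccr8 among the LN libraries. Ccr2 overlapped between treatments (0.38, interval -0.10 to 0.87, edgeR adjusted p = 0.315), as did Ccr1 (-0.33, interval -1.01 to 0.34, adjusted p = 0.564). Ccr9 had 20 counts in all in WT MC903 skin and none in untreated WT skin, at least 5.23-fold above the floor of 3 counts over the group (edgeR adjusted p = 0.0559). The Ccr9 difference passed by DESeq2 (adjusted p = 0.0207) and by edgeR without replicate 1 (0.0233) or 3 (0.0427) of untreated cKO skin.

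In cKO Tregs, MC903 skin again held less Cxcr6 and less Ccr10 than untreated skin, and no receptor of the 8 rose. That is 0 higher and 2 lower, where 5.96% of all genes were higher and 5.3% lower. Cxcr6 was read at 360, 338 and 251 CPM without treatment and 97.4, 150 and 156 after it, with the groups apart. It fell by 1.24 ± 0.21 on the log2 scale (edgeR adjusted p = 0.00209), 2.35-fold. Ccr10 was read at 63.3, 81 and 68.4 CPM without treatment and at 28.3, 13.3 and 16.5 after it, again apart (-1.87 ± 0.47, edgeR adjusted p = 0.0217, 3.66-fold lower). The Ccr10 call ended without replicate 2 or 3 of untreated cKO skin (adjusted p = 0.0726 and 0.0619), without replicate 2 or 3 of cKO MC903 skin (0.0964 and 0.0751) and without the 3 libraries with most fibroblast and endothelial markers (0.056), all by edgeR.

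Ccr4 went from 72.6, 96.8 and 59.4 CPM to 104, 128 and 123 in cKO, with no overlap, and did not pass (0.63 ± 0.23, edgeR adjusted p = 0.0828). Ccr8 went from 487, 531 and 638 to 381, 393 and 398 CPM, also with no overlap and not passing (-0.50 ± 0.23, edgeR adjusted p = 0.177). Ccr8 passed here too without replicate 3 of LN (edgeR adjusted p = 0.0108), with only the 2 groups (0.0252), by limma-voom (0.0315) and without the libraries richest in myeloid markers (0.0284). Ccr4 passed without replicate 2 of untreated WT skin (0.0481, edgeR), with only the 2 groups (0.0481), by limma-voom (0.0154) and by DESeq2 (0.0495). Ccr2 was at 403, 360 and 347 CPM without treatment and 457, 450 and 502 with it, apart but small in size (0.34 ± 0.23, edgeR adjusted p = 0.357). Ccr1 differed by 0.01, with an interval of -0.67 to 0.68, Ccr9 by -2.41 ± 1.09 and Cx3cr1 by 1.75 ± 1.39 (edgeR adjusted p = 0.994, 0.171 and 0.458). Without replicate 1 of untreated cKO skin, the library with 1 count, Ccr9 passed (edgeR adjusted p = 0.0497).

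Immediate early and heat shock genes were lower with the treatment as well. They summed to 24400 to 33900 CPM in untreated WT skin and 14500 to 15900 in WT MC903 skin, and to 26400 to 32300 and 14400 to 16300 CPM in cKO. Of the 25, 18 fell in WT, 17 fell in cKO and none rose in either. The level of Cxcr6 and the sum of these genes share an order, with LN lowest, MC903 skin between and untreated skin highest, and the part of these genes in the Cxcr6 difference was not tested. Myeloid markers summed to 517 to 674 CPM in WT MC903 skin, below the 698 to 1460 of untreated WT skin, and none of the 19 tested passed. In cKO they summed to 780 to 1070 CPM with and 858 to 1890 without treatment, and 4 of 19 rose. The falls of Cxcr6 in both genotypes and of Ccr10 in WT held without the library richest in these markers in each group.

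**Figure D4:**
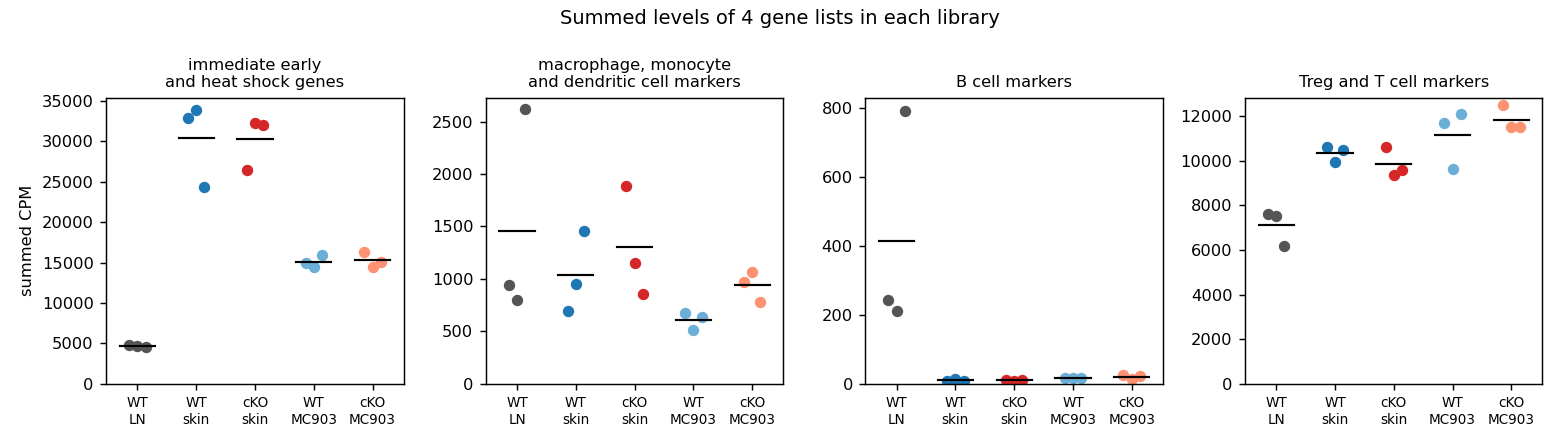
Summed CPM (linear axis) of 4 gene lists in each of the 15 libraries, with points for libraries and bars for group means (n = 3). Immediate early and heat shock genes are highest in untreated skin, lower in MC903 skin and lowest in LN; B cell markers are high in LN alone, most of all in 1 library.

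Among the other 13 tested receptors, Cxcr5 rose with MC903 in WT (4.20 ± 0.48, edgeR adjusted p = 9.05e-05) and in cKO (5.43 ± 0.50, adjusted p = 1.44e-05), from 0.124 to 2.42 and from 0.0841 to 3.8 CPM. In WT the LN-homing receptor Ccr7 fell by 0.78 on the log2 scale (edgeR adjusted p = 0.0317) and Ccrl2 by 0.75 (0.00455), and in cKO Ccr6, the receptor of Ccl20, fell by 1.49 (0.0123). The other 10 and 11 did not pass. Both Cxcr5 calls held in all alternatives. The Ccr7 call ended in 9 of 24, among them those without replicate 1 or 3 of untreated WT skin (edgeR adjusted p = 0.0693 and 0.135) and without replicate 1, 2 or 3 of WT MC903 skin (0.0911, 0.0738 and 0.0981), the Ccrl2 call ended without the libraries with most myeloid markers (0.061), and the Ccr6 call ended by limma-voom (0.0644).

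Of the 15 ligand genes, Ccl5 alone changed with MC903 in WT, where it fell by 1.37 (edgeR adjusted p = 0.0106). It fell in cKO too, by 1.2 (edgeR adjusted p = 0.0189), where Cx3cl1 also fell by 2.27 (0.0311). The 3 ligand genes that rose in cKO were Ccl8, from 1.17 ± 0.792 to 65 ± 39.1 CPM (edgeR adjusted p = 0.0169), Ccl12, from 0 to 3.18 ± 3.22 CPM (adjusted p = 0.0155), and Ccl7, from 2.24 ± 2.2 to 54 ± 47.8 CPM (0.0359), the last named after its values were seen. All 6 ligand calls with MC903 ended without at least 1 library: that of Ccl5 in WT without replicate 1 of WT MC903 skin (edgeR adjusted p = 0.057), and those in cKO without replicate 2 of cKO MC903 skin (0.054 to 0.123) or replicate 2 of untreated cKO skin (0.0554 to 0.122). Other libraries of cKO skin ended them too, namely untreated replicate 1 for Cx3cl1 (0.0567), untreated replicate 3 for Ccl7, Ccl8 and Ccl12 (0.102, 0.0798 and 0.0592), treated replicate 1 for Ccl5 and Cx3cl1 (0.0685 and 0.102) and treated replicate 3 for Ccl7 (0.059). The Ccl7 call, which ended in 11 of 24 alternatives, was also lost without LN replicate 1 (0.0693) or 2 (0.0538), libraries that are in the fit but not in that comparison. Together the ligand transcripts reached 95.7, 394 and 220 CPM in the cKO MC903 libraries. The first of these lay below the highest untreated cKO library, which held 125 CPM. Myeloid cells are known to make Ccl7, Ccl8 and Ccl12, and of 19 myeloid markers tested 4 rose in cKO with MC903 and 0 fell, while their sum overlapped between treatments (780 to 1070 CPM with and 858 to 1890 without). Among single markers, chosen after their values were seen, Csf1r ran from 2.03 to 13.4 CPM with MC903 and 1.52 to 1.95 without, and Cd74 from 534 to 756 with and 742 to 1360 without. Fibroblast and endothelial markers summed to 188 to 529 CPM with MC903 and 46.2 to 217 without, and of 14 tested 1 rose and 0 fell. The part of these markers in the ligand rises was not tested.

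Of the 22 signalling genes, 2 rose and 2 fell with MC903 in WT, and 3 rose and 2 fell in cKO. Rac2, lower in skin than in LN, rose by 0.48 ± 0.12 in WT (edgeR adjusted p = 0.0189) and by 0.64 ± 0.12 in cKO (adjusted p = 0.00336). The G protein gamma subunit Gng2 fell by 0.94 in WT (edgeR adjusted p = 0.000226). The calls on Gng2 in WT and on Rac2 in cKO held in all alternatives. That on Rac2 in WT ended in 4 of 24, among them the fit without replicate 3 of WT MC903 skin (edgeR adjusted p = 0.08). The remaining calls were on Rap1a, a GTPase of integrin activation (0.78 ± 0.19 in WT and 0.65 ± 0.19 in cKO), on the kinase gene Ptk2b in WT (-0.77 ± 0.23), and on Was (0.51 ± 0.12), Gng2 (-0.40 ± 0.12) and the arrestin gene Arrb1 (-0.81 ± 0.24) in cKO. Each of them ended without at least 1 single library and in 4 to 14 of 24 alternatives, with edgeR adjusted p of up to 0.219.

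The genotype comparison asks how skin Tregs of cKO mice differ from those of WT mice. Rora lies on chromosome 9, as do 7 of the 8 genes and the receptor cluster described above. Effects of the cut Rora alleles and of sequence inherited with them cannot be told apart. In untreated skin Cxcr6 was lower in cKO than in WT, and no other receptor of the 8 passed. That is 0 higher and 1 lower, where 0.398% of all genes tested were higher and 0.405% lower. All 3 cKO libraries (251 to 360 CPM) lay below all 3 WT libraries (454 to 799 CPM). Cxcr6 fell by 0.95 ± 0.21 on the log2 scale (edgeR adjusted p = 0.0438), a level 1.93-fold lower. Across 24 alternatives the log2 value lay between -1.12 and -0.71, and the call ended in 17 of them. Leaving out replicate 1 or 3 of untreated WT skin gave edgeR adjusted p = 0.069 and 0.169, and leaving out replicate 1, 2 or 3 of untreated cKO skin gave 0.0795, 0.104 and 0.19. Libraries of other groups enter the same fit, and the call also ended without replicate 1, 2 or 3 of WT MC903 skin (0.071, 0.0532 and 0.0569), replicate 2 or 3 of cKO MC903 skin (0.0593 and 0.0517), or replicate 1, 2 or 3 of LN (0.0522, 0.0579 and 0.057). DESeq2 gave 0.00166 for the same difference, and a fit on these 2 groups alone gave 0.124 with edgeR.

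Immediate early and heat shock genes, which followed Cxcr6 across tissue and treatment, had group means of 30400 ± 5220 and 30200 ± 3320 CPM in untreated WT and cKO skin. Markers of other lymphocytes that can express Cxcr6 (CD8 T, innate lymphoid and NK cells) summed to 18.8 to 23.7 CPM in WT and 34.5 to 46.6 in cKO, and Ncr1 was at 0 in all skin libraries. The gamma-delta T genes of that list, Tcrg-C1 and Trdc, were not among the counted genes, so these sums do not cover gamma-delta T cells. All cKO sums lay above all WT sums, and their part in the Cxcr6 difference was not tested. Myeloid markers summed to 698 to 1460 CPM in WT and 858 to 1890 in cKO, which overlap, and the Cxcr6 call ended without the library richest in them in each group (log2 -0.78, edgeR adjusted p = 0.311). Fyco1, the gene around Cxcr6, was at 13.9 ± 0.792 CPM in WT and 8.03 ± 0.106 in cKO (-0.79 ± 0.18, edgeR adjusted p = 0.0527), and its part was not tested.

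The other receptors of untreated skin had genotype differences with intervals around 0 apart from Ccr9. For Ccr2 the log2 difference was 0.42 (interval -0.07 to 0.90), for Ccr8 -0.27 (-0.76 to 0.22), for Ccr4 -0.06 (-0.54 to 0.42), for Ccr10 0.12 (-0.85 to 1.09) and for Ccr1 0.19 (-0.49 to 0.86). These intervals leave room for changes of either sign. Ccr9 had 69 counts over the untreated cKO libraries, 54 of them in replicate 3, against none in WT. This is at least 19.8-fold above the floor over the WT group, and did not pass by edgeR (adjusted p = 0.0604). It passed by DESeq2 (adjusted p = 0.00201) and by edgeR without the cKO library that held 1 count (0.0221).

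In MC903 skin no receptor of the 8 differed between genotypes by the edgeR test, where 0.258% of all genes did. Ccr10 came closest in size, at 28.3, 13.3 and 16.5 CPM in cKO against 3.29, 8.62 and 11.5 in WT. The groups did not overlap, yet the log2 difference of 1.32 ± 0.47 did not pass (edgeR adjusted p = 0.514, interval 0.30 to 2.33). Ccr8 was at 381 to 398 CPM in cKO and 432 to 480 in WT, also apart, with a difference of -0.21 ± 0.23 (edgeR adjusted p = 0.986). Cxcr6 was at 134 ± 32.1 CPM in cKO and 131 ± 13.6 in WT (0.03, interval -0.41 to 0.48). Ccr4 was at 104 to 128 CPM in cKO and 140 to 173 in WT, apart as well (-0.39 ± 0.23, edgeR adjusted p = 0.85). Ccr1 differed by 0.53 ± 0.32 and Ccr2 by 0.38 ± 0.23, with overlapping libraries (edgeR adjusted p = 0.863 and 0.863).

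Whether the genotype difference itself changed with MC903 was tested as an interaction. None of the 8 passed and 0% of all genes did by edgeR, with 765 genes at an unadjusted p under 0.05 and 21 genes called by DESeq2, none of them among the 8. The interaction of Cxcr6 was 0.98 ± 0.29 on the log2 scale (interval 0.36 to 1.61, unadjusted p = 0.00424, edgeR adjusted p = 0.866), that of Ccr10 1.19 ± 0.65 (adjusted p = 0.881), and that of Ccr9 had an adjusted p of 0.668. So the Cxcr6 difference that passed in untreated skin and not in MC903 skin was not shown to differ between them. Averaged over treatments none of the 8 passed by edgeR either, where 1.75% of all genes did. The averaged difference was -0.46 ± 0.15 for Cxcr6 (edgeR adjusted p = 0.172), 0.40 ± 0.16 for Ccr2 (0.323) and 0.72 ± 0.32 for Ccr10 (0.404). Among the 8, 3 averaged differences besides that of Ccr9 had an interval that left out 0.

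Other receptor genes did pass between genotypes. Ccr6 was lower in cKO by 3.27 on the log2 scale in untreated skin (edgeR adjusted p = 0.000209), at 11.9 ± 5.3 against 114 ± 8.86 CPM. In MC903 skin Ccr6 was at 4.25 ± 1.47 against 93.7 ± 14.6 CPM (-4.47 ± 0.36, edgeR adjusted p = 2.14e-05). Ccrl2 was lower in untreated cKO skin, at 56.1 ± 6.6 against 124 ± 21.9 CPM (-1.15 ± 0.15, edgeR adjusted p = 0.000816). Averaged over treatments, Ccr6 (-3.87 ± 0.25), Ccrl2 (-0.63 ± 0.10) and Cxcr3 (-0.66 ± 0.14) fell and Ccr3 rose (1.11 ± 0.19), with edgeR adjusted p = 5.07e-07, 0.00306, 0.0186 and 0.00375. All 3 Ccr6 calls held in all alternatives. The libraries with most myeloid markers, left out, ended the call on Ccrl2 in untreated skin (0.0592) and the averaged calls on Ccr3, Ccrl2 and Cxcr3 (0.0887, 0.0881 and 0.252), by edgeR. Ccrl2 averaged was also lost without the libraries with most fibroblast and endothelial markers (0.0516), and Cxcr3 when treated WT skin lacked replicate 1 (0.0758) or treated cKO skin lacked replicate 1 (0.0559) or 2 (0.0575). Ccr3 lies beside Ccr2 in the chromosome 9 cluster and was at 116 ± 26.4 CPM in untreated cKO skin against 54.4 ± 6.36 in WT. No ligand gene and no signalling gene passed in a genotype comparison by edgeR.

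Across the 5 groups the receptors fall into different orders of level. Ccr8 ran from untreated WT skin (667 ± 57.9 CPM) through untreated cKO skin (552 ± 77.9), WT MC903 skin (451 ± 25.6) and cKO MC903 skin (391 ± 8.59) to LN (102 ± 51.3), and only the first pair of neighbours overlapped. Cxcr6 ran in the same order of treatment, at 611 ± 175, 316 ± 57.6, then 134 ± 32.1 in cKO and 131 ± 13.6 in WT MC903 skin, which overlapped, and 29.6 ± 3.4 in LN. Ccr4 was highest in WT MC903 skin (155 ± 17.1), then cKO MC903 skin (118 ± 12.9), then WT (79.6 ± 20.7) and cKO (76.3 ± 18.9) untreated skin, which overlapped, then LN (35.7 ± 10.5). Ccr2 was highest in cKO MC903 skin (470 ± 28.6), followed by untreated cKO skin (370 ± 29.3), WT MC903 skin (362 ± 136) and untreated WT skin (277 ± 79.4), of which the last 3 overlapped as neighbours, with LN lowest (23.5 ± 2.74). Ccr1 stood at 24.4 ± 4.88 in cKO MC903 skin, 24.3 ± 7.27 and 21.3 ± 8.04 in untreated cKO and WT skin and 16.9 ± 4.47 in WT MC903 skin, all overlapping their neighbours, and at 1.13 ± 0.44 in LN. Ccr10 had 2 levels, with untreated skin of both genotypes at 70.9 ± 9.12 and 65.1 ± 13.4 and the other groups between 7.79 ± 4.15 and 19.4 ± 7.87. No neighbouring groups were apart for Cx3cr1, whose group means ran from 0.332 ± 0.39 to 1.13 ± 0.835 CPM.

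The genes whose levels followed each receptor most closely were found from the root mean square (RMS) difference of log2 CPM, each gene centred on its own mean, over the 15 libraries. For each receptor, 9624 or 9625 genes with a mean log2 CPM of at least 1 were compared, and libraries of a group share their tissue and treatment. Nearest to Ccr8 were Sh3rf1 and Slc5a3 (RMS 0.20 and 0.22 log2 units), where the median over all genes compared was 1.13. Ccr4 was nearest to Il2ra, the gene of the interleukin 2 receptor alpha chain (0.24), and Serinc3 (0.26, median 0.91). For Cxcr6 the nearest were Sdc4, a cell surface proteoglycan gene, and Fgl2, a Treg effector gene (0.41 and 0.42, median 1.56), and for Ccr10 they were the gelatinase gene Mmp9 and Edaradd (0.55 and 0.66, median 1.57). Ccr2 was nearest to Ypel4 and Rnf125 (0.22 and 0.30, median 1.68) and Ccr1 to Errfi1 and Pmaip1 (0.38 and 0.40, median 1.79). The 2 scarce receptors had no close neighbour, with Ifit2 and Gpr83 at 1.09 and 1.15 from Ccr9 (median 2.21) and Spi1 and Ly6c2, genes of myeloid cells, at 0.87 and 0.98 from Cx3cr1 (median 1.45).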

How the data were processed

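Single-end reads of 75 bp came from SMART-Seq v4 libraries, per the labels' protocols. The submitters' processing notes name the aligner TopHat2 2.0.6, the build mm9 and DESeq2 without a version; the counting of reads per gene is not given in the sources used here. The authors deposited raw counts per gene, used as they stand, and a table of LN against skin whose columns are, per the file headers, p-values, a log2 fold change, its standard error, a score that divides the former by the latter, and a normalised signal averaged over libraries.

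Counts were analysed with edgeR 4.0.16 in R 4.3.3: filterByExpr over the 5 groups left 13578 of 24015 genes, TMM factors were 0.903 to 1.26, and contrasts of 1 model over the 15 libraries were tested with robust quasi-likelihood fits, adjusted by Benjamini-Hochberg over all genes tested and called at an adjusted p under 0.05. SE is the log2 change over the root of F, and 95% intervals use the t distribution. CPM are counts per 1 M (mega) of the TMM-scaled library size, and levels per kilobase use GENCODE M21 exon lengths. Floors of 3 counts cover counting error only, since no molecular identifiers separate PCR copies. Total counts of 19.8 to 27.7 M limit the precision of Ccr9 and Cx3cr1.

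The 8 receptors and all gene lists were chosen with earlier results of these data known. Text values are those of all 8 receptors, of Rora and Foxp3, of other receptors called in a comparison, of up to 4 called ligand and 4 called signalling genes per comparison with the smallest adjusted p, and of the 2 genes nearest each receptor. Values of 2 further genes are not reported here. Markers of other cell types were summed per library. No 2 replicates held the same counts within sampling noise, and replicate numbers did not pair libraries. The pipeline was tested on simulated data.

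Alternatives were DESeq2 1.42.0, relative log expression factors, other filters, only the compared groups, a replicate block, limma-voom (limma 3.58.1) with sample weights, each library left out, the library richest in myeloid markers left out of each group and, chosen after seeing the data, the 3 libraries with most fibroblast and endothelial markers left out.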

Additional observations from a re-analysis of the deposited data

How the results depend on the processing

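Over 64 receptor results and 24 alternatives, 1479 of 1523 values stayed on the same side of the threshold, 26 lost the call and 18 gained it. No called value changed sign, and 45 values that passed in neither fit did. The calls of all receptors against LN held in all alternatives, as did the falls of Cxcr6 with MC903 in both genotypes and of Ccr10 in WT. Of 93 calls on other receptor, ligand, signalling and check genes, 52 held in all alternatives and none reversed.

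The count of receptors called between genotypes in untreated skin, 1, was 2 by DESeq2 and 0 with only the compared groups, with a replicate block, without the libraries richest in myeloid markers and without those richest in fibroblast and endothelial markers, and it ran from 0 to 1 as each library was left out. Averaged over treatments the count of 0 became 1 by DESeq2, through Ccr9 (adjusted p = 0.045). The count of 2 for MC903 in cKO became 4 with only the compared groups and by limma-voom, and 1 without the libraries with most fibroblast and endothelial markers; it ran from 1 to 3 as each library was left out. Of the levels, plain totals moved Ccr2 in LN to 27.9 CPM, Cxcr6 in LN to 34.9 and Ccr8 in cKO MC903 skin to 378.

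Same-numbered libraries correlated at over 0.1 in 3 of 30 pairs, so the numbers were not taken to pair them; the replicate block took the Cxcr6 genotype difference to an adjusted p of 0.0706 by edgeR.

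Over all genes, the 109 called between genotypes in untreated skin were 344 by DESeq2, 60 to 67 without 1 of 3 libraries, and 36 or 54 without the libraries richest in myeloid or in fibroblast and endothelial markers. The 35 in MC903 skin were 151 by DESeq2, 104 by limma-voom, 22 without 1 of 2 libraries, and 8 or 13 without the marker-rich libraries; the 11 higher and 24 lower became 69 and 82 by DESeq2. The averaged 237 became 485 by DESeq2 and 102 or 107 without the marker-rich libraries. With MC903, 1421 in WT became 541 with only the compared groups, 767 to 946 without 1 of 3 libraries, and 838 or 758 without the marker-rich ones. The 1529 in cKO became 2642 by limma-voom. They became 645 to 980 without replicate 2 or 3 of untreated cKO skin or any 1 replicate of cKO MC903 skin. Without replicate 1 of untreated cKO skin the calls grew to 1054 higher and 841 lower. The 0 of the interaction became 21 by DESeq2. The cause of these shifts was not tested, and a fit with a library left out also has fewer libraries. Depth limits Ccr9 and Cx3cr1, whose counts reached 243 and 49 at most.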
